A study of Mus musculus with 5 samples.

Results

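The genes described here are the 3 members of the p53 transcription factor family (Trp53, Trp63 and Trp73), the 2 p53 inhibitors Mdm2 and Mdm4, and 5 genes that p53 is known to activate (Ccng1, Eda2r, Sesn1, Trp53inp1 and Phlda3). They were taken by symbol from a table of 55357 mouse genes. All 10 symbols were found and all 10 had enough reads to be among the 15665 genes tested. RNA came from follicle stem cells of the back skin of mice at postnatal day 75, gated on CD34, EpCAM and high α6-integrin and against Sca1. Control (2 libraries, replicates 1 and 3) was Ring1a-/-, Ring1bflox/flox, and PRC1 i2KO (3 libraries) was K15-CrePR1:Ring1a-/-, Ring1bflox/flox. Ring1a was therefore missing from both groups, and the groups differ by K15-CrePR1, a Cre recombinase under a keratin 15 promoter that RU-486 switches on. Mice of both groups had topical 1% RU-486 each day for 10 days, starting at day 50, and were sampled 15 days after the end of that course. Ring1a and Ring1b are the catalytic subunits of the Polycomb complex PRC1, which ubiquitinates histone H2A, so the comparison asks what changed when Ring1b was deleted from cells without Ring1a.

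p53 is a transcription factor that is kept scarce by Mdm2, a ubiquitin ligase, and held inactive by the related protein Mdm4. Damage or other stress frees it, and it then switches on genes that stop the cell cycle, repair DNA, limit oxidants or kill the cell; Mdm2 is itself one of those targets, which closes a feedback loop. p53 is controlled mainly at the level of the protein, so the RNA level of Trp53 is not a measure of p53 activity. p63 is a relative that stratified epithelia need to form and to keep their basal cells, and p73 is a further relative with overlapping DNA binding.

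The sorted cells differed in makeup or state between the groups, as read from marker lists over all reads, with each list's level summed in CPM (counts per gene scaled to library size). Of 10 bulge stem cell markers 8 were lower and none higher in PRC1 i2KO, with summed levels of 20240 to 21250 CPM in Control and 4802 to 6793 CPM in PRC1 i2KO. Cd34, the sorting marker, was at 1549 and 1697 CPM in the controls, against 11.0, 12.3 and 37.2 CPM in PRC1 i2KO replicates 1, 2 and 3. All 10 upper follicle and sebaceous gland markers (281 to 299 against 7099 to 8314 CPM), all 8 suprabasal markers (1262 to 1274 against 2747 to 3926 CPM) and 14 of 15 cell cycle genes (131 to 184 against 662 to 918 CPM) were higher. Melanocyte markers summed to 5.1 to 7.26 CPM in Control and 25.3 to 29.1 CPM in PRC1 i2KO (2 of 4 tested higher), and Tyr was at 0 in Control. Immune markers summed to 21.6 to 26.8 and 67.6 to 102 CPM, mostly Cd74 (1 of 3 tested higher), with Lyz2 at 0 throughout and Cd3g and Trdc at 0 in Control, and fibroblast and endothelial markers to 72.4 to 74.96 and 32.4 to 35.1 CPM (1 higher and 3 lower of 5 tested), with Cdh5 and Lum at 0 in Control. The part of these differences in the results below was not tested, and in bulk RNA fewer cells of a type and less RNA per cell cannot be told apart. Libraries held 8270419 to 32463173 estimated reads.

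Among the 10 genes, 2 rose and 3 fell in PRC1 i2KO, and 5 did not pass the test. Eda2r rose 13.2-fold from a very low level and Trp53 rose 1.32-fold, while Trp53inp1 fell 1.76-fold, Trp63 fell 1.53-fold and Sesn1 fell 1.25-fold. Mdm2, Mdm4, Ccng1, Trp73 and Phlda3 did not pass. The test was edgeR's quasi-likelihood test with p-values adjusted by Benjamini-Hochberg over all 15665 genes, and a gene was called at an adjusted p under 0.05. By that rule 33.9% of all tested genes were called, 18.8% as higher and 15.1% as lower, against 50% of these 10 genes. The difference carries no test, since the 10 genes were chosen with earlier results of these data known. In 6 of the 10 genes the libraries of the groups did not overlap, against 59.5% of all tested genes. The median log2 fold change was -0.15 over the 10 genes and -0.01 over all tested genes. No label ties the libraries to separate animals, so the spread behind the p-values is that between these libraries and may be technical.

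**Figure D1:**
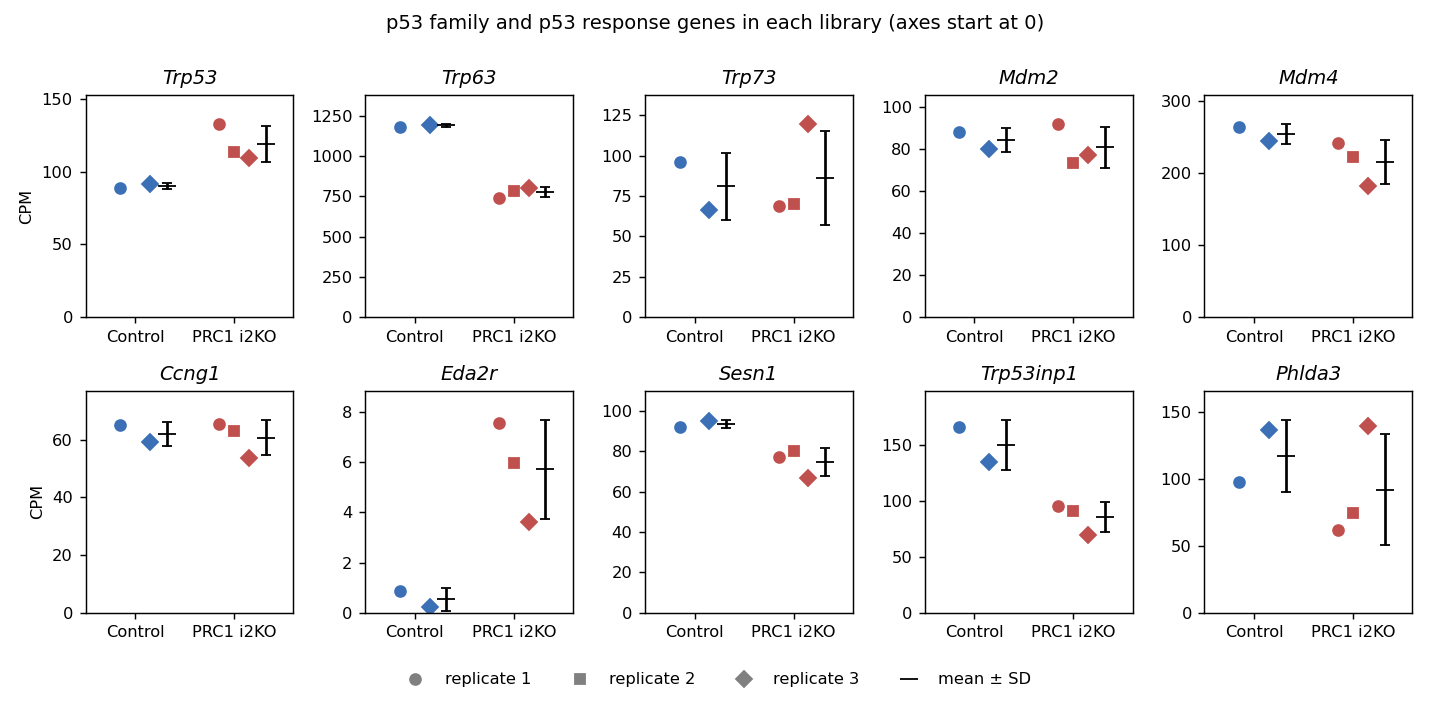
Normalised level (CPM, linear axes from 0) of each gene in each library, with Control in blue, PRC1 i2KO in red, symbols for the replicate number and black marks for the group mean ± SD. Trp63, Trp53inp1, Sesn1 and Mdm4 lie lower and Trp53 and Eda2r higher in every PRC1 i2KO library, while Trp73 and Phlda3 are highest in PRC1 i2KO replicate 3.

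Levels of different genes can be compared only per transcript length, for which the deposited TPM (a unit that divides reads by gene length) was used. In Control, Trp63 had the highest level of the 10 genes, at 480.8 ± 0.707 TPM (SD, n = 2). Below it came Phlda3 (164.5 TPM), Mdm4 (110.3 TPM), Trp53 (93.3 TPM), Mdm2 (72.6 TPM), Sesn1 (62.3 TPM), Trp53inp1 (54.3 TPM), Trp73 (37.8 TPM), Ccng1 (32.2 TPM) and Eda2r (0.41 TPM). Of these neighbours only Trp73 and Ccng1 had overlapping ranges, though each range rests on 2 libraries. In PRC1 i2KO, Trp63 again had the highest level, at 286 ± 22.0 TPM (SD, n = 3), and Eda2r the lowest, at 2.87 TPM. There Phlda3 (116 TPM), Trp53 (113 TPM) and Mdm4 (88.2 TPM) overlapped in turn. Mdm2 followed at 61.0 TPM, and Sesn1 (44.1 TPM), Trp73 (36.4 TPM), Ccng1 (28.0 TPM) and Trp53inp1 (26.7 TPM) again each overlapped with the next.

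The transcription factors themselves come first. Trp63, the epithelial member (ENSMUSG00000022510), had 1184 and 1197 CPM in the controls (replicates 1 and 3, the order used throughout), against 744, 786 and 802 CPM in PRC1 i2KO replicates 1, 2 and 3. The groups were far apart relative to the spread within each. Its log2 fold change was -0.62 (SE 0.1, 95% interval -0.84 to -0.39; edgeR adjusted p = 0.00121), and it was called under each of the 14 alternatives tried (log2 fold changes from -0.75 to -0.57). Counts per gene do not separate the long and the N-terminally shortened forms of p63, so which form fell is not known from these files.

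Trp53, which encodes p53 (ENSMUSG00000059552), stood at 88.5 and 91.5 CPM in Control and at 133, 114 and 109.6 CPM in PRC1 i2KO. All 3 PRC1 i2KO libraries were above both controls, replicate 1 by the most. The log2 fold change was 0.40 (SE 0.114; edgeR adjusted p = 0.023). It was no longer called when Control replicate 1 (adjusted p = 0.115) or 3 (0.0993) was left out, without PRC1 i2KO replicate 1 (0.0742) or 2 (0.052), and on the deposited TPM (limma adjusted p = 0.182), over a range of 0.00444 to 0.248 in all 14 alternatives. On the TPM scale the median of all tested genes was itself shifted by -0.13, and relative to it Trp53 was 0.40 higher on the log2 scale.

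Trp73 (ENSMUSG00000029026) stood at 95.8 and 66.2 CPM in Control and at 68.8, 69.8 and 119.5 CPM in PRC1 i2KO. The groups overlapped, and PRC1 i2KO replicate 3 was the highest of all 5 libraries. The log2 fold change of 0.10 (95% interval -0.70 to 0.90; edgeR adjusted p = 0.843) had no stable direction, since it was -0.21 without PRC1 i2KO replicate 3, -0.15 without Control replicate 3 and -0.06 on TPM. The interval is wide on both sides of 0, so that a change of Trp73 within it cannot be told from none with these libraries.

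The shares of the 3 genes in the family's transcripts were read on the TPM scale. Trp63 gave 77.5% and 79.7% of the summed TPM of the 3 genes in Control and 62.0%, 68.9% and 66.1% in PRC1 i2KO, while Trp53 gave 15.0% and 15.5% against 30.8%, 24.5% and 22.9%. Trp73 gave 7.49% and 4.81% against 7.20%, 6.65% and 10.97%, with overlap (exact 2-sided permutation p = 0.6). The ratio of Trp63 to Trp53 TPM went from 5.15 ± 0.0375 (SD, n = 2) to 2.57 ± 0.483 (SD, n = 3). The libraries did not overlap in the ratio, but an exact 2-sided permutation test of 2 against 3 libraries cannot go below p = 0.2, which is what it gave (0.35 when adjusted over the 7 ratios and sums computed). The ratio of Trp63 to Trp73 TPM was 13.5 ± 4.38 (SD, n = 2) and 8.33 ± 2.18 (SD, n = 3), with an exact 2-sided permutation p = 0.4. With that floor the permutation test could not have shown a difference in any of these shares and ratios, so nothing is concluded from it. The sum of the 3 genes was 621 and 603 TPM in Control and 423, 421 and 463 TPM in PRC1 i2KO.

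**Figure D2:**
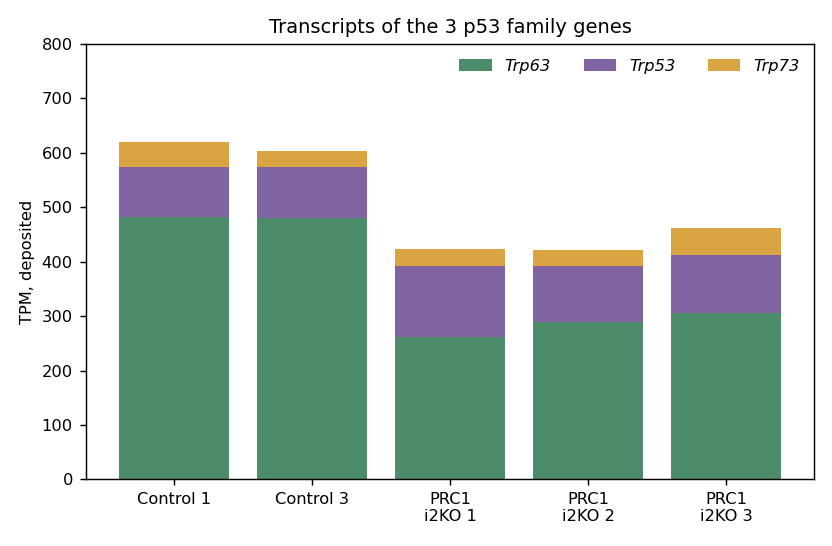
Deposited TPM of Trp63 (green), Trp53 (purple) and Trp73 (yellow), stacked for each of the 5 libraries on a linear axis from 0. The stacks are shorter in PRC1 i2KO (421 to 463 TPM against 603 to 621 TPM), with the green part lower (262 to 306 against 480 to 481 TPM) and the purple part higher (103 to 130 against 93.0 to 93.7 TPM).

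The 2 inhibitors of p53 did not pass the test. Mdm2, the ubiquitin ligase and p53 target (ENSMUSG00000020184), stood at 88.0 and 79.9 CPM in Control and at 91.7, 73.3 and 77.0 CPM in PRC1 i2KO. These values were interleaved, and the log2 fold change was -0.06 (95% interval -0.33 to 0.21; edgeR adjusted p = 0.755), with a sign that changed in 3 of 14 alternatives. On TPM every PRC1 i2KO library of Mdm2 was below both controls (58.8 to 64.5 against 69.0 and 76.1 TPM). The log2 difference there was -0.25 (limma adjusted p = 0.162), or -0.12 relative to the median of all tested genes. Mdm4, which masks the activation domain of p53 (ENSMUSG00000054387), stood at 264 and 244 CPM in Control and at 242, 223 and 182 CPM in PRC1 i2KO. Every PRC1 i2KO library was below both controls, replicate 1 barely so, and the log2 fold change was -0.24 (95% interval -0.52 to 0.05; edgeR adjusted p = 0.189). Mdm4 had more transcripts than Mdm2 in each library, by 1.57 and 1.47 times in Control and 1.65, 1.47 and 1.21 times in PRC1 i2KO on the TPM scale.

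The response genes went in different directions. Eda2r, a TNF receptor family member that binds ectodysplasin A2 (ENSMUSG00000034457), had 7 reads in each control and 73, 127 and 69 reads in PRC1 i2KO. Scaled to depth, that is 0.862 and 0.218 CPM in Control and 7.57, 5.97 and 3.63 CPM in PRC1 i2KO, with every PRC1 i2KO library above both controls. The log2 fold change was 3.72 (SE 0.675; edgeR adjusted p = 0.00229). Its size hung on the controls, at 4.67 without Control replicate 1 and 2.71 without Control replicate 3. It also hung on the scale, at 1.47 on TPM with pseudocount 1 and 2.84 with pseudocount 0.1. With so few control reads, the place of Eda2r among the tested genes rested mainly on the PRC1 i2KO libraries. With no filter beyond 1 read its log2 fold change was 3.71 (edgeR adjusted p = 1.4e-08). Even after the rise Eda2r remained the lowest of the 10 genes.

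Trp53inp1, a nuclear and autophagy-linked protein that p53 and p73 induce (ENSMUSG00000028211), stood at 167 and 135 CPM in Control and at 95.5, 91.6 and 70.1 CPM in PRC1 i2KO. The groups did not overlap, and PRC1 i2KO replicate 3 was the lowest library. The log2 fold change was -0.81 (SE 0.149; edgeR adjusted p = 0.00277), called under all 14 alternatives (-1.03 to -0.66). Sesn1, a sestrin that restrains mTORC1 and oxidants (ENSMUSG00000038332), stood at 91.9 and 94.96 CPM in Control and at 77.2, 80.1 and 66.7 CPM in PRC1 i2KO, again without overlap. The difference on the log2 scale was -0.33 (SE 0.111), close to the threshold (edgeR adjusted p = 0.0462). The call of Sesn1 was lost whichever library was left out (adjusted p from 0.0625 to 0.211), with DESeq2 (0.0694) and with scaling to library totals (0.0634).

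Ccng1, which encodes cyclin G1 (ENSMUSG00000020326), stood at 65.0 and 59.1 CPM in Control and at 65.5, 63.1 and 53.8 CPM in PRC1 i2KO. On this scale the 2 groups covered nearly the same range. The log2 fold change was -0.03 (95% interval -0.31 to 0.25; edgeR adjusted p = 0.887), with a sign that flipped when scaled to library totals. On TPM every PRC1 i2KO library of Ccng1 was below both controls (25.5 to 29.6 against 30.7 and 33.7 TPM). The log2 difference there was -0.20 (limma adjusted p = 0.368), or -0.06 relative to the median of all tested genes. Phlda3, a small protein that blocks AKT at the membrane (ENSMUSG00000041801), stood at 97.7 and 136 CPM in Control and at 61.7, 74.6 and 139.5 CPM in PRC1 i2KO. PRC1 i2KO replicates 1 and 2 lay below both controls and replicate 3 above both. With all libraries the log2 fold change was -0.35 (95% interval -1.44 to 0.74; edgeR adjusted p = 0.579), and without PRC1 i2KO replicate 3 it was -0.78 (adjusted p = 0.0125).

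PRC1 i2KO replicate 3 was the highest library for both Trp73 and Phlda3, and among the 3 PRC1 i2KO libraries it also had the highest Trp63 and the lowest Trp53, Mdm4, Ccng1, Eda2r, Sesn1 and Trp53inp1. In the same library the bulge markers summed to 6793 CPM, against 4802 and 4985 CPM in replicates 1 and 2, and the cell cycle genes to 662 CPM, against 849.5 and 918 CPM. Whether these differences bear on Trp73 and Phlda3 was not tested. Left out, that library changed which genes fell without changing how many: Sesn1 was then not called (adjusted p = 0.0625) and Phlda3 was, so that 3 fell and 2 rose as before.

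**Figure D3:**
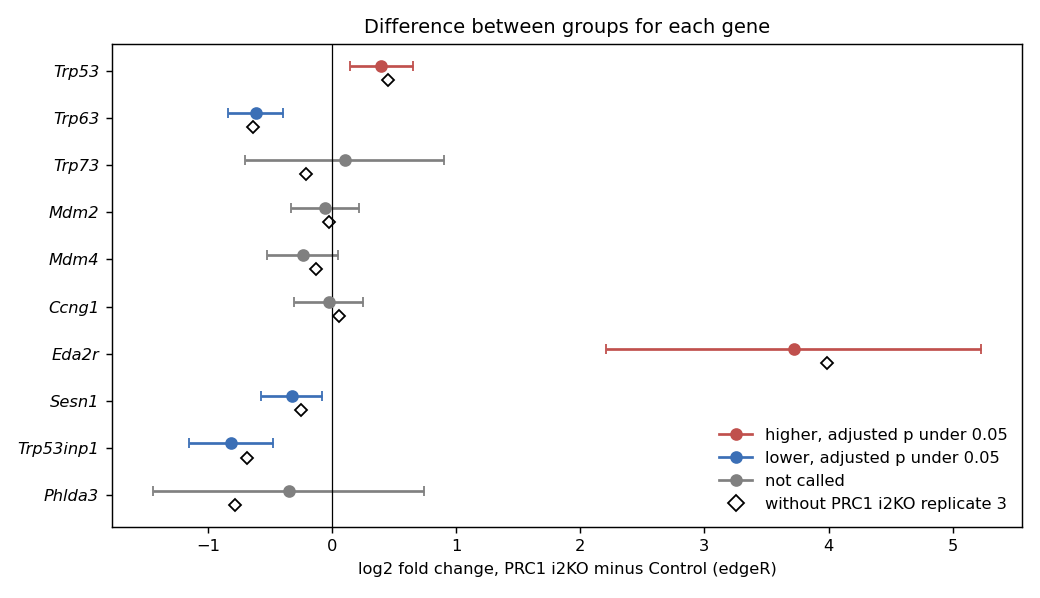
Log2 fold change of each gene (PRC1 i2KO minus Control, edgeR) as filled points with 95% intervals, red for higher, blue for lower and grey for not called, and open diamonds for the fit without PRC1 i2KO replicate 3. Eda2r stands alone at 3.72 with a wide interval, and Trp73 and Phlda3 have the widest intervals among the other genes.

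p53 binds DNA as a tetramer, each pair of subunits on a 10-base half-site, and promoter sequences of 8 of the 10 genes (11 promoters, 250 bases before to 50 after each RefSeq start, build GRCm38.p6) were searched for exact matches to the p53 half-site. Trp63 and Trp53inp1 were not matched. A half-site was found in 4 of the 11 promoters, those of Trp53, Mdm2, Ccng1 and 1 of 2 starts of Sesn1, against 8.36% of all 32851 promoters in the table. The motif reads the same on both strands. A match is a description of the letters and not evidence of binding, and the best-known p53 sites of Mdm2 lie in its first intron, outside this window. The 4 windows of 50 bases are shown because they place the motif beside 1 gene that rose, 1 that fell and 2 that did not pass; they are written 5′ to 3′ on the gene's strand, with the half-site in capitals.
Trp53: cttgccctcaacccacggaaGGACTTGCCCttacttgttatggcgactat
Mdm2: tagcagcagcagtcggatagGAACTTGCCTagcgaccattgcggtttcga
Ccng1: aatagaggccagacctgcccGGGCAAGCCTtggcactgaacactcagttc
Sesn1: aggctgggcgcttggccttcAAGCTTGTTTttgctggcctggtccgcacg
The windows are chr11:69580264-69580313 (plus strand) for Trp53, chr10:117710915-117710964 (minus) for Mdm2, chr11:40755442-40755491 (minus) for Ccng1 and chr10:41887246-41887295 (plus) for Sesn1. The half-sites start 75, 186, 185 and 173 bases before the annotated start.

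The promoter of Eda2r, the gene with the largest rise of the 10, held no exact half-site. It is shown whole (chrX:97377160-97377459, minus strand), with its match to TATAAA in capitals, a sequence found on either strand in 13.6% of all promoters in the table and in 2 of the 11 promoters here.
Eda2r: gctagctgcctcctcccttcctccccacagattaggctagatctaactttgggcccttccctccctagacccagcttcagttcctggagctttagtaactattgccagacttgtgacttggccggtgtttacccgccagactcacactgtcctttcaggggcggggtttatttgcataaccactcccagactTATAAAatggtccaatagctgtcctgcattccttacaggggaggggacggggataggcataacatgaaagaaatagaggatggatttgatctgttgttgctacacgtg
This promoter holds 5 CG pairs, against a median of 7 over all promoters, 10 in that of Trp53 and 35 in that of Mdm2. Promoters of Mdm4 hold 9 and 4, those of Trp73 hold 6 and 39, that of Ccng1 holds 14 and that of Phlda3 holds 26. None of these genes passed the test, nor did Mdm2. Promoters of Sesn1, which fell, hold 24 and 31. For Trp63 and Trp53inp1, which also fell, no promoter was matched, and a relation of CG pairs to the changes was not tested. No chromatin or methylation was measured in these libraries.

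Other p53 target genes were read from a list of 54, of which 51 were tested. Of these 8 rose, 11 fell and 32 did not pass, so that 37.3% were called against 33.9% of all genes, and their median log2 fold change was 0.01. Cdkn1a, the cell cycle inhibitor p21 and a classical p53 target, stood at 266 and 138 CPM in Control and at 177, 173 and 150.5 CPM in PRC1 i2KO. Its controls spanned the whole PRC1 i2KO range, and its difference (log2 fold change -0.27, edgeR adjusted p = 0.509) turned to 0.27 without Control replicate 1 and to -0.68 without Control replicate 3 (adjusted p = 0.00855). The death genes Bax (log2 fold change 0.40, adjusted p = 0.0819) and Bbc3 (0.01, adjusted p = 0.979) did not pass, nor did Perp, a desmosome protein that p53 and p63 both induce (-0.02, adjusted p = 0.929 by edgeR).

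Among the targets that fell, Dram1, a lysosomal protein of autophagy, was at 69.3 ± 3.59 CPM in Control (SD, n = 2) and at 17.0 ± 3.58 CPM in PRC1 i2KO (SD, n = 3), 4.09-fold lower (edgeR adjusted p = 2.84e-05). Ak1, an adenylate kinase, fell 4.71-fold and Trp53i11 fell 2.67-fold. Rrm2b, the p53-induced subunit of ribonucleotide reductase, fell 2.24-fold from 54.4 CPM, and Ephx1, an epoxide hydrolase, fell 2.24-fold from 443 CPM. The named gene that rose was Psrc1, a spindle protein, which went from 5.15 ± 0.727 CPM to 37.2 ± 10.8 CPM, 7.36-fold higher (edgeR adjusted p = 0.000105). Psrc1 acts in mitosis, and the part of the higher cell cycle genes in its rise was not tested. The other targets that rose, named after their values were seen, were Pstpip2, Gadd45a, Notch1, Pidd1, Pltp, Susd6 and Pmaip1, at log2 fold changes from 0.35 to 1.54. The other targets that fell, named in the same way, were Steap3, Sulf2, Xpc, Trp53i13, Ankra2 and Ddb2, at log2 fold changes from -1.15 to -0.55. The number that rose was 4 without Control replicate 3, 12 without Control replicate 1 and 5 on TPM.

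**Figure D4:**
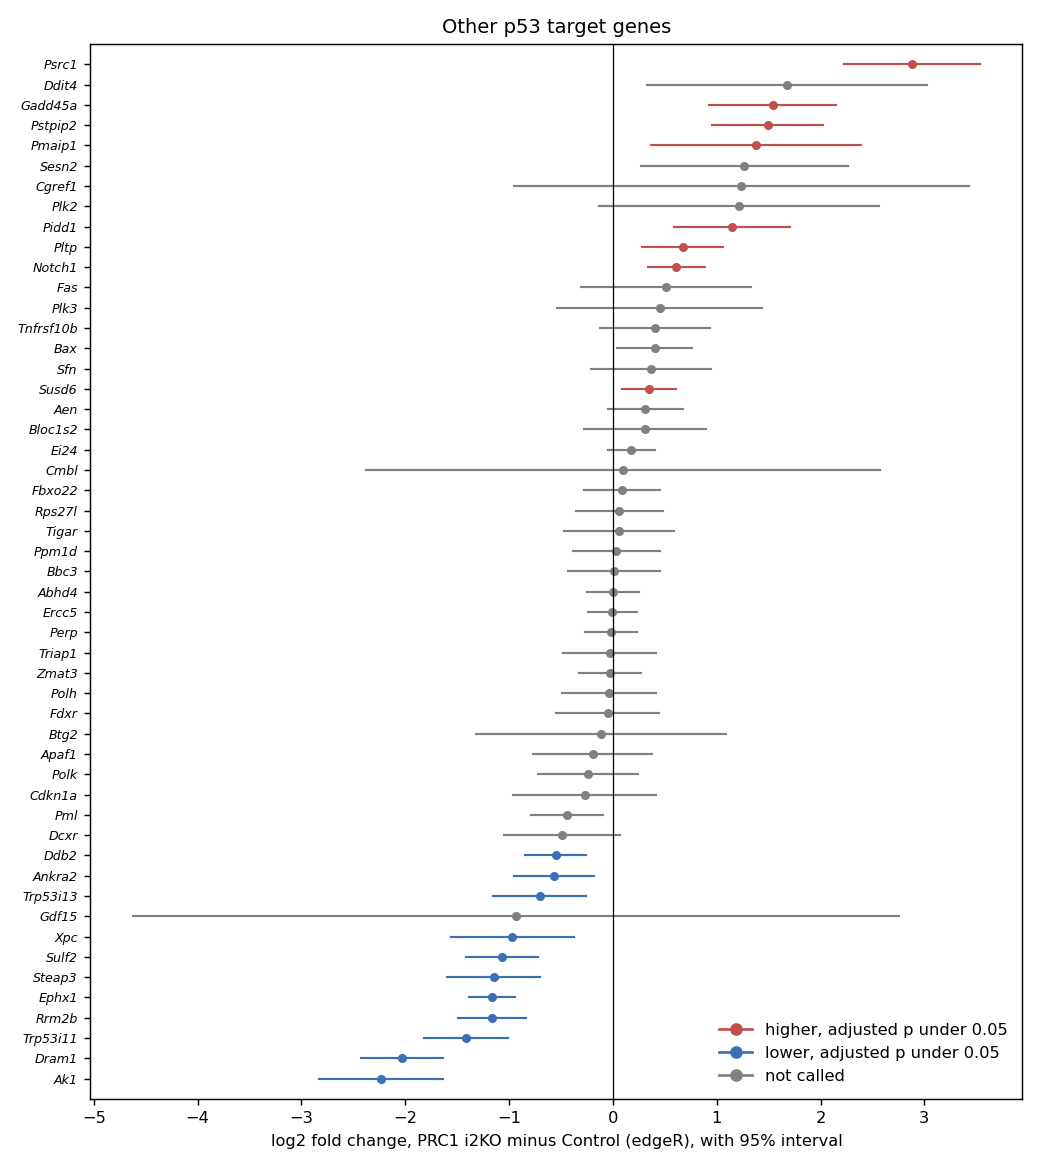
Log2 fold change (PRC1 i2KO minus Control, edgeR) of the 51 tested p53 target genes outside the 10, ordered by size, with 95% intervals, red for higher, blue for lower and grey for not called. The points run from -2.24 (Ak1) to 2.88 (Psrc1) and most intervals cross 0.

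Of 31 regulators and cofactors of p53, 30 were tested, of which 9 rose, 3 fell and 18 did not pass (40% called, near the 33.9% of all tested genes, with a median log2 fold change of -0.02). Hipk2, a kinase that phosphorylates p53, was at 32.6 ± 2.39 CPM in Control (SD, n = 2) and rose 2.01-fold, to 65.7 ± 9.9 CPM (SD, n = 3) in PRC1 i2KO, with an edgeR adjusted p = 0.000707. Rpl5 and Rpl23, ribosomal proteins that can bind Mdm2, rose 1.61-fold and 1.44-fold. Chek1, a checkpoint kinase of S and G2 phase, rose 2.72-fold from 2.83 CPM, a call that was lost without Control replicate 3 (edgeR adjusted p = 0.0587). On unfiltered TPM the calls of Chek1 (limma adjusted p = 0.0973), Rpl23 (0.13), Hipk2 (0.0522) and Trp53bp2 (0.0625) were lost. Trp53bp1, a DNA break response protein, fell 1.41-fold and Trp53bp2, which steers p53 toward death genes, fell 1.52-fold. Cdkn2a, whose Arf product blocks Mdm2, was not tested, with 0 reads in Control and 1 read in PRC1 i2KO.

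Genes that p63 is known to bind or activate in keratinocytes went both ways. All 17 were tested: 7 fell, 3 rose and the test was not passed by 7 (58.8% called, against 33.9% of all tested genes, with a median log2 fold change of -0.06). That difference in share carries no test, since the list was chosen with earlier results of these data known. Col17a1 and Dst, which anchor basal cells in hemidesmosomes, fell 3.56-fold and 2.43-fold, from 12520 and 3823 CPM, and Fgfr2, a growth factor receptor of basal cells, fell 1.46-fold. Zfp750, a transcription factor of differentiating keratinocytes, was at 7.73 ± 1.95 CPM in Control (SD, n = 2) and rose 17.5-fold, to 129 ± 22.2 CPM (SD, n = 3) in PRC1 i2KO, with an edgeR adjusted p = 6.86e-06. Fras1, a basement membrane protein, rose 18.2-fold from 2.15 CPM, and Smarca4, a chromatin remodeller, rose 1.41-fold, though not on TPM (limma adjusted p = 0.0937). Krt14, the keratin of basal cells, missed the threshold (edgeR adjusted p = 0.534, log2 fold change 0.12). The part of the lower bulge and higher suprabasal markers given above in these values was not tested.

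The genes whose profiles over the 5 libraries lay closest to 2 of the 10 genes were found by the Euclidean distance between log2 CPM values centred on each gene's mean. Of 9421 genes whose mean reached 10 CPM, Prnp, Gas6 and Enox2 were closest to Trp63, at distances of 0.0605, 0.0628 and 0.0772 and log2 fold changes of -0.62, -0.62 and -0.66. Close to Eda2r were Dclk1 and Sema6a, at larger distances of 0.453 and 0.526 and log2 fold changes of 3.01 and 3.05. With 5 libraries in 2 groups these distances mostly reflect the size of the group difference.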

How the data were processed

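The authors deposited 1 table with, per the file headers, a count and a TPM column for each of 5 libraries. Some of the deposited values are fractional, so the authors' count columns are expected counts per gene, here rounded to whole numbers for testing; the deposited TPM, scaled by the authors to gene length and a fixed total, carries no information on depth. Listed in the submitters' processing notes are DESeq2 1.38.2, RSEM 1.3.3, STAR 2.7.9a and, as build, mm39, with no step for any of them; for annotation and strandedness nothing is stated (not given in the sources used here). Per the labels' protocols, RNA of 50000 sorted cells was used, RNA integrity was above 8, and 50 ng went into polyadenylate-selected libraries. Libraries of a group differed by more than sampling noise (chi-square from 10.1 to 41.8 for each degree of freedom), so none were merged.

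Tests used edgeR 4.0.16 (R 4.3.3; filterByExpr, TMM, robust quasi-likelihood F test, genotype as the only term, all 5 libraries); the SE is the log2 fold change divided by the root of F. Alternatives used DESeq2 1.42.0, limma 3.58.1 on log2(TPM + 1) or log2(TPM + 0.1), other scalings and filters, and each library left out. The fit was tested on simulated data. CPM used TMM-scaled totals. Named were the 10 genes, Cdkn1a, Bax, Bbc3 and Perp, and up to 6 called genes with the smallest adjusted p from each of 3 lists; likeness was taken for the 2 genes of the 10 with the smallest adjusted p, and 1 gene that this rule selected is not reported here. The 10 genes and all lists were chosen with earlier results of these data known. Promoters are RefSeq's on GRCm38.p6, another build than the authors', so they were used for sequence only. In those gene models none of the 10 genes overlaps a tested gene (0 of 10).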

Additional observations from a re-analysis of the deposited data

How the results depend on the processing

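Of the 14 alternatives, each run on 32 named genes, 402 outcomes kept direction and side of the threshold, 23 kept direction but lost the call, 2 gained it and 21 changed sign; all sign changes were in genes that were not called. The number of genes called was 2996 on unfiltered TPM and 3322 to 5856 with 1 library left out (lowest without Control replicate 3). Of the 10 genes, those that rose numbered 1 on TPM with either pseudocount, 0 on unfiltered TPM (limma; Eda2r adjusted p = 0.0514, Trp53 0.248) and 1 to 2 with 1 library left out; those that fell numbered 2 to 3. The p53 targets that rose numbered 5 on TPM with either pseudocount, 2 unfiltered, and 4 to 12 with 1 library left out. Sign changes on the log2 scale were as follows. Trp73 was -0.064, -0.066 and -0.064 on TPM (pseudocount 1, 0.1, unfiltered) and -0.21 to 0.38 with 1 library left out. Bbc3 was -0.033, -0.037 and -0.033 on these, -0.011 with upper quartile factors and -0.078 to 0.061 with 1 library left out. With 1 library left out, Mdm2 ran from -0.15 to 0.011, Ccng1 from -0.099 to 0.058, Cdkn1a from -0.68 to 0.27 and Perp from -0.049 to 0.044. With library totals Ccng1 was 0.0021 and Perp 0.014. The cause of these changes was not tested. Where 1 control was left out, the lone control was assumed to vary like the other group.

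Titles give replicate numbers 1 and 3 in both groups. Deviations of same-numbered libraries correlated at 0.0737 and 0.115 across genes, and those of differently numbered libraries at -0.115 to 0.0432. With 2 controls, the deviations of one are those of the other with the sign changed, so these values are not independent. With 2 pairs the numbers are thus not shown to pair libraries. With the replicate number as a block, 4421 genes were called, 2 of the 10 genes rose and 3 fell, 10 targets rose and 9 fell, and Mdm2 was at 0.0017. Depth limits Eda2r most, with 7 reads in each control.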
